A study of Mus musculus with 4 samples.

Results

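The TNF superfamily was read on 4 arrays of mouse group 3 innate lymphoid cells (ILC3s). Its members were taken by gene symbol: every row named Tnfsf or Tnfrsf with a number, together with Tnf, Lta, Ltb, Ltbr, Fas, Fasl, Cd40, Cd40lg, Cd27 and Cd70. Of the 19504 genes with a row, 38 were members, 15 of them ligands and 23 receptors, each with 1 row. Cd27, Tnfsf12 and Tnfsf13 were not analysed here. The 4 arrays held ILC3s from circZbtb20-/- mice, which lack a circular RNA of the Zbtb20 gene, from their circZbtb20+/+ wild type, from Nr4a1-/- mice, which lack an orphan nuclear receptor induced by lymphocyte stimulation, and from their Nr4a1+/+ wild type. The cells had been sorted as lineage-negative, CD90-high and CD45-low, and the labels give neither tissue, age, treatment nor the number of animals. Each genotype had 1 array, which leaves every value below without a replicate error and with a precision set by that single array.

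Ligands of this superfamily are mostly trimers held on the cell surface or shed from it, and their receptors cluster around them. Receptors with a death domain can recruit caspases, while most of the others bind TRAF adaptors. Signalling from these receptors can switch on NF-kB, either through the IKK complex or through the kinase NIK and the processing of p100. ILC3s and the related lymphoid tissue inducer cells are known for surface lymphotoxin and RANKL, with which they instruct stromal cells during lymphoid organ formation, and they carry receptors such as DR3 that tune their cytokine output.

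All values are deposited log2 expression values with 2 decimals, and all differences are log2 differences, knockout minus wild type. The array medians lay between 4.34 and 4.51. A gene is called higher or lower where the difference was at least 1, which is 2-fold, and the higher value reached the median of its array. The same call against both wild types is given as the stricter count. The highest value of the table, 19.93, was shared by 3 to 25 rows of an array, and 0 members stood there. In such bulk samples fewer cells of a type and less RNA per cell cannot be told apart.

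The arrays were checked against their labels first. Nr4a1 itself was at 11.63 in Nr4a1-/- cells, against 18.11 in Nr4a1+/+ cells. The knockout value is still high for that array, at the lower edge of its upper 5% of rows, and whether its probes lie in the deleted part is not given. The difference of -6.48 was not particular to Nr4a1: its relatives Nr4a2 and Nr4a3 were lower there by -7.81 and -7.36. Nr4a1 was also lower in circZbtb20-/- cells, at 15.98, against 19.93 in circZbtb20+/+ cells. Its value therefore does not by itself mark the genotype. Of 12 measured ILC3 markers, such as Kit, Il23r and Ncr1, all 12 reached the array median on the circZbtb20 knockout and on both wild types, with median levels of 16.94 in the circZbtb20 knockout, 15.74 in its wild type and 15.39 in the Nr4a1 wild type. In the Nr4a1 knockout that median level was 5.49, with 10 markers at or over the array median, and Kit was at 5.48, against 18.36 in its wild type. The 15 measured T cell and thymocyte markers had a median level of 15.79 there, against 5.93 in its wild type. Il22, Id2, Il7r and Tox were at 13.40 or more there. Against the Nr4a1 wild type Id2 was lower by -3.41 and Il7r by -2.98, while Tox was higher by 4.38. Il22 was at the highest value of the table, 19.93, on this array and on both wild types, so a difference above it would not show. The Nr4a1 knockout array thus goes against its cell type label for most markers on both lists, and every result for it stands beside these values; their part in the results was not tested.

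On the ligand side, Ltb and Tnfsf11 (RANKL) were well above the array medians in both wild types. So were Tnfsf4 (OX40 ligand), Tnf, Tnfsf10 (TRAIL) and Tnfsf14 (LIGHT). On the receptor side the same held for Tnfrsf9 (4-1BB), Tnfrsf18 (GITR), Tnfrsf1a and Tnfrsf1b (the TNF receptors TNFR1 and TNFR2). Of the 38 members, 27 reached the array median in the circZbtb20 knockout, 25 in its wild type, 25 in the Nr4a1 knockout and 29 in the Nr4a1 wild type. The share of all genes that did so was 50.7% to 50.9% on the 4 arrays. The upper 5% of rows of an array held 3 members in the circZbtb20 knockout, 4 in its wild type, 0 in the Nr4a1 knockout and 4 in the Nr4a1 wild type. Tnfrsf9 and Tnfrsf18 were among them on each array that had any. Cd70, Tnfsf13b (BAFF), Tnfsf18, Tnfrsf21, Tnfrsf17, Tnfrsf11b and Tnfrsf22 stayed under the median on all 4 arrays, between 2.44 and 4.32, where values depend on background.

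**Figure D1:**
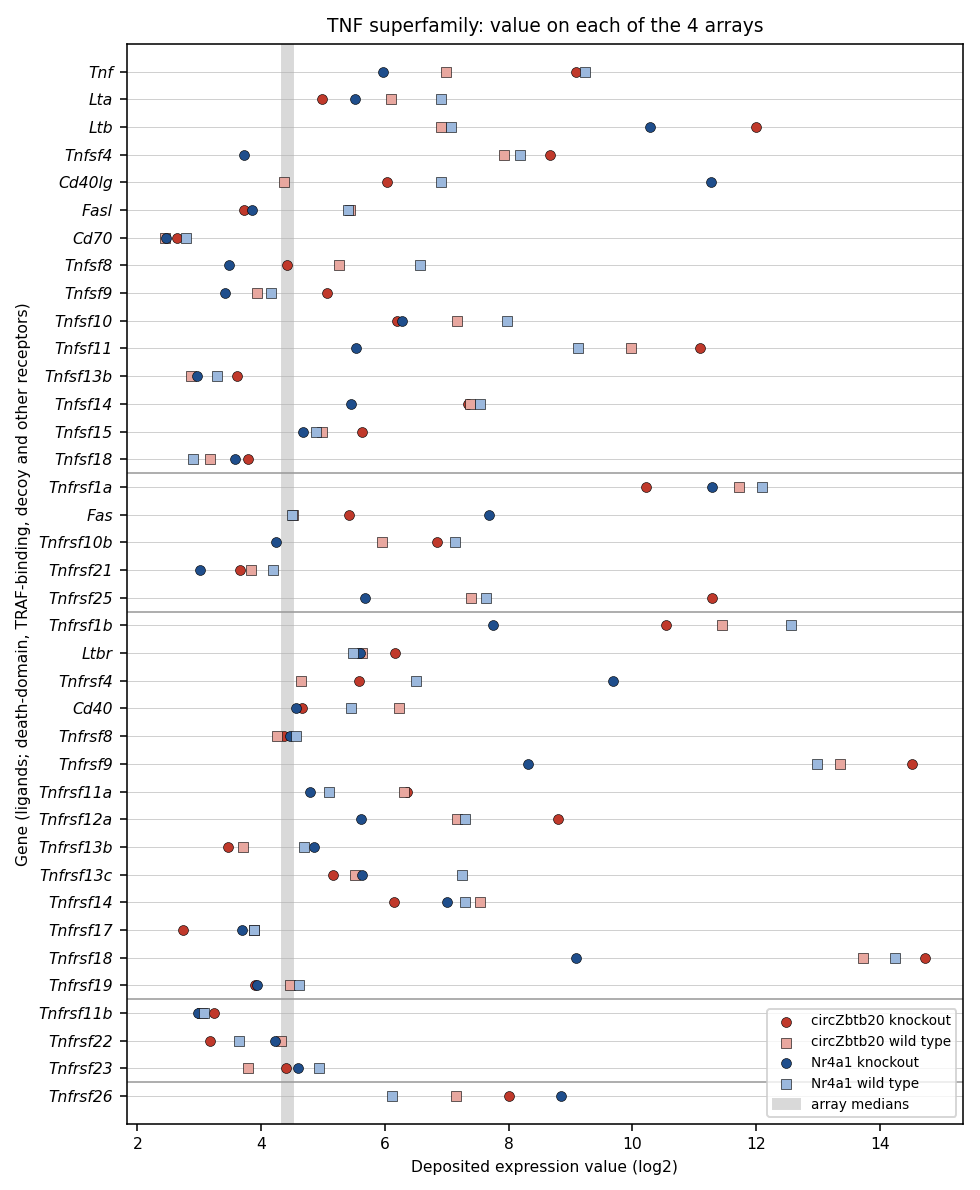
Deposited log2 values of the 38 TNF superfamily genes on the 4 arrays, 1 point per array, with lines between ligands and the classes of receptor and the range of array medians in grey. Tnfrsf9 and Tnfrsf18 lie between 12.99 and 14.73 on 3 arrays and at 8.31 and 9.08 on the Nr4a1 knockout; levels of different genes come from different probes and are not compared.

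The first comparison asked how the superfamily differs in ILC3s without circZbtb20. Ltb and Tnfrsf25 (DR3) were far higher in the knockout, by 5.09 and 3.90, and Tnfsf11, Tnfrsf9 and Tnfrsf12a were more modestly higher. Fasl, Lta, Tnfrsf1a and Tnfrsf14 were lower, by between -1.12 and -1.70. Of the 38 members 9 were called higher and 5 lower against the paired wild type, where 26.6% of all genes were called, 15.6% higher and 11.1% lower. The 14 calls are 36.8% of the members. The stricter count was 5 members higher and 4 lower, 23.7% of the members, beside 20.1% of all genes, 12.2% higher and 7.91% lower. The stricter count is near the background, and the sizes of Ltb and Tnfrsf25 stand out more than the number of calls: 0.25% of all genes were at least as much higher as Ltb and 0.95% as Tnfrsf25.

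The next comparison asked the same of the array labelled Nr4a1 knockout. Here 15 members were called lower and 5 higher against the paired wild type, 52.6% of the members, beside 30.3% of all genes, 11.9% lower and 18.3% higher. The stricter count was 12 members lower and 5 higher, 44.7% of the members, beside 24.2% of all genes, 8.63% lower and 15.6% higher. More members were lower than higher, while more of all genes were higher than lower. Tnfrsf18, Tnfrsf1b, Tnfrsf9, Tnfsf4 and Tnfsf11 were lower by between -3.59 and -5.17, while Cd40lg, Ltb, Fas, Tnfrsf4 and Tnfrsf26 were higher by between 2.74 and 4.36.

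A comparison of the wild types with one another shows how far 2 arrays of wild-type cells differ. Their titles pair them with different knockouts. In the Nr4a1 wild type 8 members were called higher and 2 lower than in the circZbtb20 wild type, 26.3% of the members, beside 8.36% of all genes, 4.65% higher and 3.71% lower. The highest were Cd40lg by 2.54, Tnf by 2.26, Tnfrsf4 by 1.86 and Tnfrsf13c by 1.73, and the lowest was Tnfrsf11a at -1.22. Markers of other cells differed between the wild types too: in the Nr4a1 wild type 8 of 9 acinar and 4 of 7 stromal and endothelial markers were lower, and 5 of 7 epithelial, 4 of 11 macrophage and dendritic cell, 5 of 15 T cell and 2 of 7 B cell markers were higher. Their part in the members' differences was not tested. Values of the 5 genes named in a knockout therefore depend on the wild type chosen. The median difference of the 38 members was 0.37 in the circZbtb20 knockout, -0.72 in the Nr4a1 knockout and 0.23 between the wild types, beside 0.04, 0.00 and 0.03 over all genes. With the wild types exchanged, 7 members were higher and 9 lower in circZbtb20-/- cells, beside 15.1% and 12.0% of all genes and 27.1% in either direction. For Nr4a1-/- cells the exchange gave 6 higher and 14 lower, beside 18.8% and 11.7% of all genes and 30.5% in either direction. The member median was then -0.20 in the circZbtb20 knockout and -0.54 in the Nr4a1 knockout, so the sign of the first turned and that of the second did not.

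**Figure D2:**
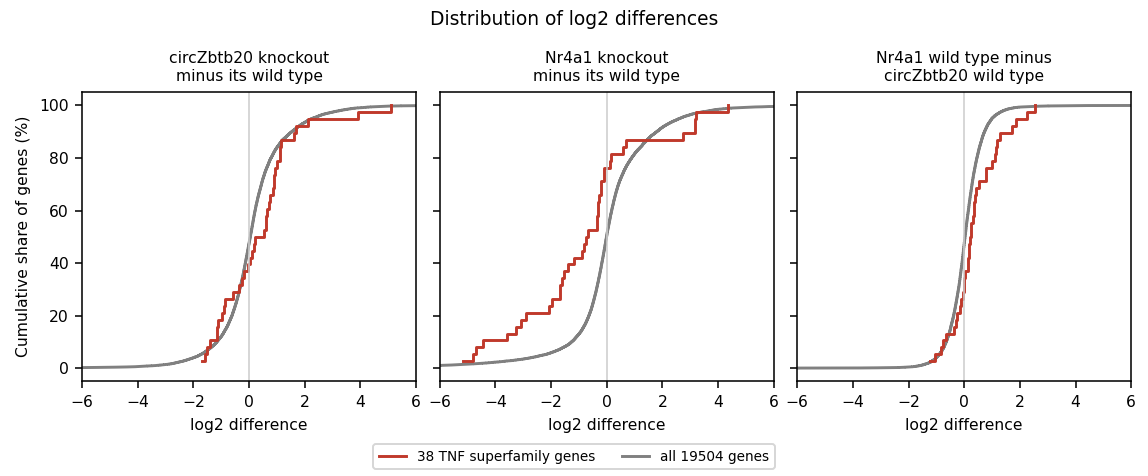
Cumulative share of genes (percent) by log2 difference, for the 38 members in red and all 19504 genes in grey, in each knockout against its wild type and between the wild types, cut at 6 on either side. In the Nr4a1 knockout the member curve lies left of that of all genes over most of its course, with a median of -0.72, against 0.00 for all genes.

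Lymphotoxin beta was the only ligand higher in both knockouts against both wild types. Ltb encodes the subunit that anchors lymphotoxin alpha in the membrane as the ligand of the lymphotoxin beta receptor. It was at 11.99 in circZbtb20-/- cells, against 6.90 in circZbtb20+/+ cells, and at 10.28 in Nr4a1-/- cells, against 7.07 in Nr4a1+/+ cells. Both knockouts lay above both wild types, by 5.09 and 3.21 against their own and by 4.92 and 3.38 against the other. The partner subunit Lta, also a soluble ligand of the TNF receptors, did not follow: it was at 4.98 in circZbtb20-/- cells, against 6.10 in circZbtb20+/+ cells, and at 5.51 in Nr4a1-/- cells, against 6.90 in Nr4a1+/+ cells. Its differences were -1.12 and -1.39, and the second shrank to -0.59 against the other wild type. The receptor Ltbr, known mainly from stromal and myeloid cells, was at 6.17 in circZbtb20-/- cells, against 5.63 in circZbtb20+/+ cells, and at 5.60 in Nr4a1-/- cells, against 5.49 in Nr4a1+/+ cells, all under the 2-fold size.

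Tnf, the inflammatory cytokine, was at 9.08 in circZbtb20-/- cells, against 6.98 in circZbtb20+/+ cells, and at 5.97 in Nr4a1-/- cells, against 9.24 in Nr4a1+/+ cells. Its difference of 2.10 in the circZbtb20 knockout turned to -0.16 against the other wild type. In the Nr4a1 knockout it was lower against both, by -3.27 and -1.01. Tnf was therefore lower on the Nr4a1 knockout and on the circZbtb20 wild type than on the other arrays. Ltb, Tnf and Lta follow each other along chromosome 17 with 0 protein-coding genes between them, yet in the Nr4a1 knockout Ltb was higher where Tnf and Lta were lower.

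The bases upstream of Ltb and Tnf are shown because these neighbours differed in opposite directions, and those of Tnfrsf9 because it was lower by -4.68 in the Nr4a1 knockout and the second of its listed starts carried matches to 2 motifs. Each is the 250 bases before a RefSeq start site (build GRCm38.p6), written 5′ to 3′ on the gene's strand, with motif matches in capitals. The regions are chr17:35194257-35194506 on the plus strand for Ltb, chr17:35202008-35202257 on the minus strand for Tnf and chr4:150927749-150927998 on the plus strand for Tnfrsf9.
Ltb: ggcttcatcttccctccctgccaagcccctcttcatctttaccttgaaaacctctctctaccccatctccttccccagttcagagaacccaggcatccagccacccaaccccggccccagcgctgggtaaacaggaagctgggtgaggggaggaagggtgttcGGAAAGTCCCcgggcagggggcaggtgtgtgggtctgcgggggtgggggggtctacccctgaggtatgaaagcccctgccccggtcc
Tnf: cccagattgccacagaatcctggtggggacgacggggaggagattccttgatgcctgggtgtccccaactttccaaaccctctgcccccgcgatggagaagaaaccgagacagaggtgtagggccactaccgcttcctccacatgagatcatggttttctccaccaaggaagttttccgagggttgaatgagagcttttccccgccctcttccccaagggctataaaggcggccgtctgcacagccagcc
Tnfrsf9: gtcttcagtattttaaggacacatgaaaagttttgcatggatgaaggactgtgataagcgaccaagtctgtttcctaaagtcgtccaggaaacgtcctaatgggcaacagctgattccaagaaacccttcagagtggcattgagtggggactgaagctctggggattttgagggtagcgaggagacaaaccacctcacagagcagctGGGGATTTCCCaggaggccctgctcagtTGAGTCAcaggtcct

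The motifs were searched on both strands: AAAGGTCA, the element bound by NR4A monomers, TGANTCA, the AP-1 site, and the NF-kB decamer consensus. Upstream sequences were found for 29 of the 38 members, with 33 start sites. The NF-kB consensus was in those of 3 members, Ltb, Tnfrsf8 and Tnfrsf9, and in 3.9% of 32841 upstream regions of all genes. In Ltb it began 87 bases before the start site, and in Tnfrsf9 there were overlapping matches that began 43 and 42 bases before it. TGANTCA was found in 5 members, Fas, Tnfrsf8, Tnfrsf9, Tnfsf13b and Tnfsf14, and in 6.75% of all regions. AAAGGTCA was in 0 member windows and in 1.34% of all regions. A match is a description of these letters in these windows and not a site of binding.

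Among the TNF receptors, Tnfrsf1a, the widely expressed death-domain receptor TNFR1, was at 10.22 in circZbtb20-/- cells, against 11.72 in circZbtb20+/+ cells, and at 11.28 in Nr4a1-/- cells, against 12.09 in Nr4a1+/+ cells. In the circZbtb20 knockout it was lower, by -1.50 (-1.87 with the other wild type), and under the 2-fold size in the Nr4a1 knockout. Tnfrsf1b, the TRAF-binding receptor TNFR2, was at 10.54 in circZbtb20-/- cells, against 11.45 in circZbtb20+/+ cells, and at 7.75 in Nr4a1-/- cells, against 12.56 in Nr4a1+/+ cells. In the Nr4a1 knockout it was thus below all other arrays, by -4.81 against its own wild type and -3.70 against the other. In the circZbtb20 knockout TNFR2 was lower by -0.91 against its own wild type and by -2.02 against the other.

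Costimulatory receptors, which raise survival and cytokine output of lymphocytes, included the members at -5.17 and -4.68 in the Nr4a1 knockout. Tnfrsf9 was at 14.51 in circZbtb20-/- cells, against 13.35 in circZbtb20+/+ cells, and at 8.31 in Nr4a1-/- cells, against 12.99 in Nr4a1+/+ cells. It was past the size in both knockouts against both wild types, higher in the circZbtb20 knockout by 1.16 and 1.52 and lower in the Nr4a1 knockout by -4.68 and -5.04. Its ligand Tnfsf9 lay near the array medians, at 5.06 in circZbtb20-/- cells, against 3.94 in circZbtb20+/+ cells, and at 3.41 in Nr4a1-/- cells, against 4.16 in Nr4a1+/+ cells.

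Tnfrsf18 was at 14.73 in circZbtb20-/- cells, against 13.73 in circZbtb20+/+ cells, and at 9.08 in Nr4a1-/- cells, against 14.25 in Nr4a1+/+ cells. Its difference of -5.17 in the Nr4a1 knockout was the lowest of the 38 members, and 1.39% of all genes were at least as much lower. In the circZbtb20 knockout it was higher by exactly the threshold, 1.00, and by 0.48 against the other wild type. Its ligand Tnfsf18 stayed between 2.90 and 3.79.

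Tnfrsf4, which encodes OX40, a costimulatory receptor known from activated T cells, was higher in the Nr4a1 knockout, where its neighbour on chromosome 4, Tnfrsf18, was lower. It was at 5.58 in circZbtb20-/- cells, against 4.64 in circZbtb20+/+ cells, and at 9.68 in Nr4a1-/- cells, against 6.50 in Nr4a1+/+ cells. In the circZbtb20 knockout its difference was 0.94, beside 1.00 for Tnfrsf18, and turned to -0.92 with the other wild type. The difference in the Nr4a1 knockout was 3.18, and 5.04 against the other wild type, while no protein-coding gene lies between Tnfrsf4 and Tnfrsf18. Its ligand Tnfsf4, through which ILC3s can support T cells, was at 8.66 in circZbtb20-/- cells, against 7.93 in circZbtb20+/+ cells, and at 3.72 in Nr4a1-/- cells, against 8.18 in Nr4a1+/+ cells. OX40 was therefore higher and its ligand lower on the Nr4a1 knockout, by -4.46 for the ligand.

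Cd40lg, the CD40 ligand best known from helper T cells, was the member highest in the Nr4a1 knockout by difference. It was at 6.04 in circZbtb20-/- cells, against 4.37 in circZbtb20+/+ cells, and at 11.27 in Nr4a1-/- cells, against 6.91 in Nr4a1+/+ cells. The differences in the Nr4a1 knockout were 4.36 and 6.90, while that of 1.67 in the circZbtb20 knockout turned to -0.87 against the other wild type. Cd40, its receptor on B cells and myeloid cells, was at 4.66 in circZbtb20-/- cells, against 6.23 in circZbtb20+/+ cells, and at 4.57 in Nr4a1-/- cells, against 5.45 in Nr4a1+/+ cells.

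Tnfrsf25 encodes DR3, the death-domain receptor of TL1A, which costimulates innate lymphoid cells and T cells. It was at 11.29 in circZbtb20-/- cells, against 7.39 in circZbtb20+/+ cells, and at 5.68 in Nr4a1-/- cells, against 7.63 in Nr4a1+/+ cells. The circZbtb20 knockout alone was high, by 3.90 (3.66 with the other wild type), and the Nr4a1 knockout was the lowest, by -1.95 and -1.71. Tnfsf15, which encodes TL1A, was at 5.63 in circZbtb20-/- cells, against 4.98 in circZbtb20+/+ cells, and at 4.68 in Nr4a1-/- cells, against 4.88 in Nr4a1+/+ cells, under the 2-fold size in each.

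RANKL, like DR3, was highest in the circZbtb20 knockout and lowest in the Nr4a1 knockout. Tnfsf11 was at 11.09 in circZbtb20-/- cells, against 9.97 in circZbtb20+/+ cells, and at 5.53 in Nr4a1-/- cells, against 9.12 in Nr4a1+/+ cells. It was higher in the circZbtb20 knockout by 1.12 and 1.97 and lower in the Nr4a1 knockout by -3.59 and -4.44. Its receptor Tnfrsf11a (RANK) lay between 4.79 and 6.35 and its decoy Tnfrsf11b (osteoprotegerin) between 2.98 and 3.24. Tnfrsf12a, which encodes Fn14, the receptor of TWEAK, was highest and lowest on the same arrays, at 8.80 in circZbtb20-/- cells, against 7.17 in circZbtb20+/+ cells, and at 5.61 in Nr4a1-/- cells, against 7.30 in Nr4a1+/+ cells. It was higher by 1.63 in the circZbtb20 knockout and lower by -1.69 in the Nr4a1 knockout, and Tnfsf12, its ligand, was not analysed here.

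In the Fas system ligand and receptor differed in opposite directions in the Nr4a1 knockout. Fasl, the ligand that triggers apoptosis, was at 3.73 in circZbtb20-/- cells, against 5.43 in circZbtb20+/+ cells, and at 3.85 in Nr4a1-/- cells, against 5.40 in Nr4a1+/+ cells. Both knockouts were under their array medians, and the differences were -1.70 and -1.55. Fas was at 5.42 in circZbtb20-/- cells, against 4.51 in circZbtb20+/+ cells, and at 7.68 in Nr4a1-/- cells, against 4.50 in Nr4a1+/+ cells. The wild types nearly coincided for both genes, and the Nr4a1 knockout was higher for Fas by 3.18 and 3.17 against them.

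In the TRAIL system the receptor was lower in the Nr4a1 knockout against both wild types. Tnfsf10, which encodes TRAIL, was at 6.19 in circZbtb20-/- cells, against 7.17 in circZbtb20+/+ cells, and at 6.28 in Nr4a1-/- cells, against 7.97 in Nr4a1+/+ cells. Its difference of -1.69 in the Nr4a1 knockout shrank to -0.89 against the other wild type. Tnfrsf10b, the TRAIL death receptor of the mouse, was at 6.84 in circZbtb20-/- cells, against 5.95 in circZbtb20+/+ cells, and at 4.24 in Nr4a1-/- cells, against 7.13 in Nr4a1+/+ cells. Its differences in the Nr4a1 knockout were -2.89 and -1.71. The decoy genes Tnfrsf22 and Tnfrsf23, neighbours on chromosome 7, lay between 3.17 and 4.94 and were not called in either knockout. Tnfrsf26, beside Tnfrsf22, was at 8.0 in circZbtb20-/- cells, against 7.15 in circZbtb20+/+ cells, and at 8.85 in Nr4a1-/- cells, against 6.11 in Nr4a1+/+ cells, higher in the Nr4a1 knockout by 2.74 and 1.70. These 3 genes are related copies, so their rows may share signal.

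LIGHT and CD30 ligand were lower in the Nr4a1 knockout too. Tnfsf14, which encodes LIGHT, a ligand of HVEM and of the lymphotoxin beta receptor, was at 7.35 in circZbtb20-/- cells, against 7.38 in circZbtb20+/+ cells, and at 5.46 in Nr4a1-/- cells, against 7.54 in Nr4a1+/+ cells. The other 3 arrays differed by no more than 0.19, and the Nr4a1 knockout was lower by -2.08 than its own wild type. HVEM, encoded by Tnfrsf14, was at 6.14 in circZbtb20-/- cells, against 7.54 in circZbtb20+/+ cells, and at 7.0 in Nr4a1-/- cells, against 7.29 in Nr4a1+/+ cells, lower by -1.40 in the circZbtb20 knockout and under the 2-fold size in the Nr4a1 knockout. Tnfsf8, which encodes CD30 ligand, was at 4.41 in circZbtb20-/- cells, against 5.26 in circZbtb20+/+ cells, and at 3.48 in Nr4a1-/- cells, against 6.56 in Nr4a1+/+ cells, a difference of -3.08 in the Nr4a1 knockout and of -1.78 against the other wild type. Its receptor gene Tnfrsf8 stayed between 4.25 and 4.57.

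Of the receptors of BAFF and APRIL, known for B cell survival, Tnfrsf13c (BAFF receptor) was over the median on all 4 arrays. It was at 5.16 in circZbtb20-/- cells, against 5.52 in circZbtb20+/+ cells, and at 5.63 in Nr4a1-/- cells, against 7.25 in Nr4a1+/+ cells. Its call of -1.62 in the Nr4a1 knockout became 0.11 against the other wild type. Tnfrsf13b (TACI) lay between 3.46 and 4.86 and Tnfrsf17 (BCMA) between 2.73 and 3.89. Tnfrsf19, a receptor outside this group, lay between 3.90 and 4.61. None of these 3 was called in either knockout. Of 7 B cell markers measured, 3 reached the median on each array. The 2 called between the wild types differed in the same direction as Tnfrsf13c. Cd79a, a subunit of the B cell receptor, was at 4.41 in Nr4a1-/- cells, against 6.99 in Nr4a1+/+ cells, and Blnk, an adaptor of that receptor, at 4.33 in Nr4a1-/- cells, against 6.17 in Nr4a1+/+ cells. Between the wild types Cd79a was higher by 2.34 and Blnk by 1.09 in the Nr4a1 wild type, beside 1.73 for Tnfrsf13c. Ebf1, the highest of the 7 on each array, was lower there by -0.59. Cd79b differed by 0.01, and Ms4a1, Pax5 and Cd22 by 0.15 to 0.29. In the Nr4a1 knockout Ebf1 was lower by -1.24 and Cd79b higher by 0.45. The part of these markers in the differences of Tnfrsf13c was not tested.

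**Figure D3:**
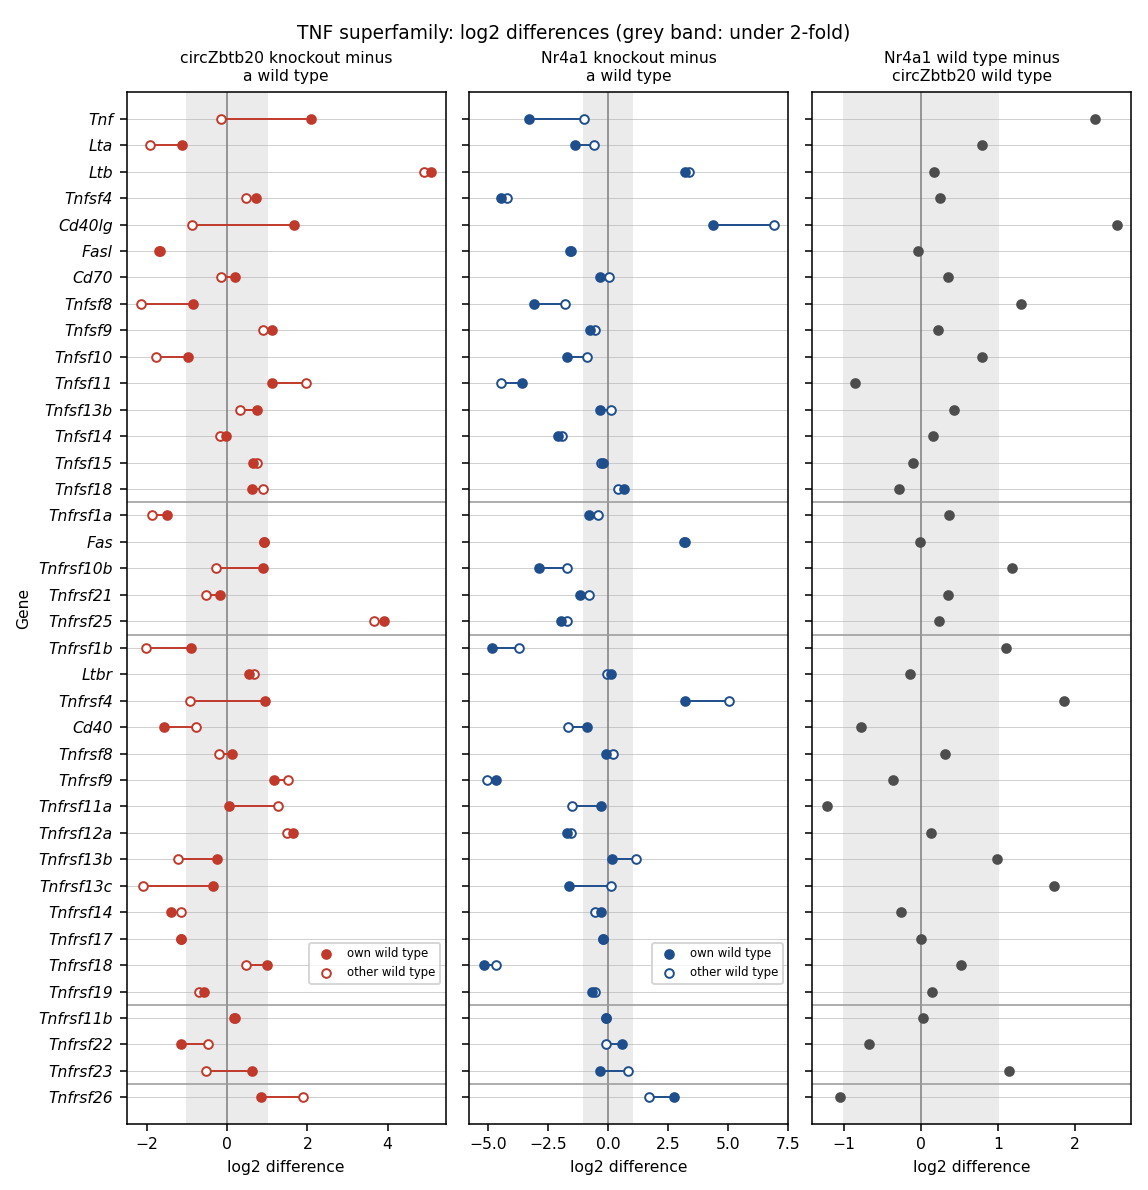
Log2 differences of the 38 members, for each knockout against its own wild type (filled) and the other wild type (open) and between the wild types, with the band under 2-fold in grey and lines between the classes of receptor; the scales of the panels differ. Ltb and Tnfrsf25 are far right in the circZbtb20 knockout, and Tnf, Cd40lg and Tnfrsf4 have the longest lines between the wild types used.

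Set side by side, 10 members were called in both knockouts against their own wild types, 26.3% of the members beside 14.4% of all genes. The directions were opposite for 6 of them, 15.8% of the members beside 5.89% of all genes. Tnf, Tnfsf11, Tnfrsf25, Tnfrsf9, Tnfrsf12a and Tnfrsf18 were higher in the circZbtb20 knockout and lower in the Nr4a1 knockout. Ltb and Cd40lg were higher in both, Lta and Fasl were lower in both, and 0 members were lower in the circZbtb20 knockout and higher in the Nr4a1 knockout. Against both wild types the opposite calls were those of Tnfsf11, Tnfrsf25, Tnfrsf9 and Tnfrsf12a, with Ltb higher and Fasl lower in both, and there the knockouts share their controls. Called in neither knockout against its own wild type were 14 members, 36.8%, beside 57.5% of all genes.

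**Figure D4:**
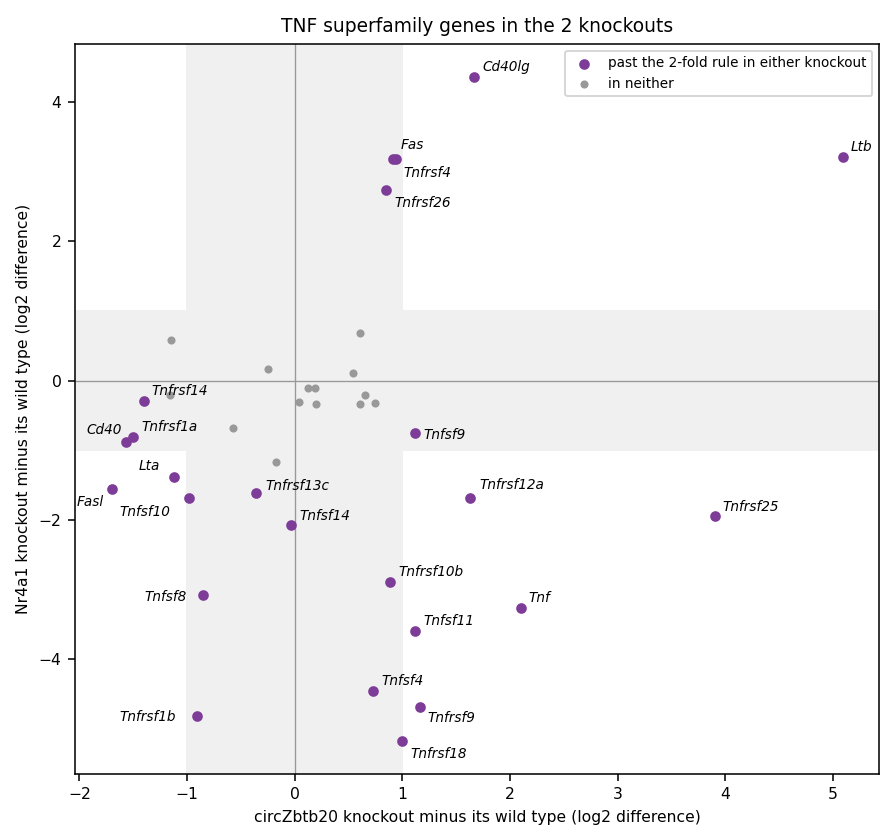
Log2 difference of each of the 38 members in the circZbtb20 knockout (x axis) and the Nr4a1 knockout (y axis), each against its own wild type, with the range under 2-fold in grey and genes past the rule in either knockout named. The lower right holds the 6 members higher in the first and lower in the second, and Ltb is alone at the far right above 0; the unnamed points past 1 on either axis, Tnfrsf17, Tnfrsf21 and Tnfrsf22, were under the array medians.

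Known ligand and receptor pairs were read on the same array. Of 20 pairs with both genes measured, both genes reached the array median for 13 in the circZbtb20 knockout, 12 in its wild type, 10 in the Nr4a1 knockout and 13 in the Nr4a1 wild type. Of all genes taken singly 50.7% to 50.9% reached the median, and no such share was taken for pairs. The TNF and lymphotoxin pairs, LIGHT with its receptors, RANKL with RANK and TL1A with DR3 did so on all 4 arrays. OX40 ligand with OX40 and TRAIL with its receptor did so on every array but the Nr4a1 knockout, where Tnfsf4 and Tnfrsf10b lay under the median. Whether the cells carry these proteins was not measured.

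Genes that carry the signal from these receptors differed in both directions. Several NF-kB subunits and inhibitors and the adaptor Traf1 were far lower in the Nr4a1 knockout, while other genes were higher. Of 41 measured signalling genes 18 were lower and 11 higher against its own wild type, 70.7% of the list, beside the 30.3% of all genes, with a median of -0.21. The stricter count was 17 lower and 9 higher, 63.4% of the list, beside 24.2% of all genes, 8.63% lower and 15.6% higher. A shorter list left out 8 genes that NF-kB itself induces, chosen after seeing the data. Of its 33 genes 10 were lower and 11 higher, beside 11.9% and 18.3% of all genes. All 8 had been called lower, by between -3.49 and -8.68. The fall from 18 was thus set by the choice of genes, and no conclusion is drawn from it. Traf1, an adaptor bound by 4-1BB and TNFR2, was at 5.43 in Nr4a1-/- cells, against 14.11 in Nr4a1+/+ cells, a difference of -8.68. Tnfaip3, which encodes the NF-kB inhibitor A20, was at 12.55 in Nr4a1-/- cells, against 19.89 in Nr4a1+/+ cells. Nfkbie, an inhibitor of NF-kB, was at 4.51 in Nr4a1-/- cells, against 11.51 in Nr4a1+/+ cells. The subunit genes Rel and Nfkb2 were lower by -6.83 and -6.79, and Map3k14, which encodes NIK, by -6.46. The 11 higher genes included Rnf31 by 2.72, Daxx by 2.62, Tab1 by 2.53 and Casp8 by 2.40. Traf2, Traf4, Traf5 and Traf6 were under the 2-fold size against its own wild type. The 8 NF-kB targets include Traf1, Tnfaip3, Nfkbie, Rel and Nfkb2. Between the wild types 1 of the 41 genes was called.

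In the circZbtb20 knockout the balance of this list depended on the setting. Of the 41 genes 13 were higher and 5 lower against its own wild type, 43.9% of the list, beside the 26.6% of all genes, with a median of 0.20. The stricter count was 10 higher and 4 lower, 34.1% of the list, beside 20.1% of all genes. With the other wild type 11 were higher and 11 lower, beside 15.1% and 12.0% of all genes. After quantile normalization of the deposited values, whose distributions differed between arrays, 9 were higher and 8 lower. Of all genes 2680 were then higher and 2474 lower, 26.4% in either direction. Nfkbib, another NF-kB inhibitor, was at 14.52 in circZbtb20-/- cells, against 8.44 in circZbtb20+/+ cells, a difference of 6.08. Cflar, the inhibitor of caspase 8, was higher by 2.68, and Traf4 and Ikbkb by 2.16 each. Rela, a subunit of NF-kB, was at 13.18 in circZbtb20-/- cells, against 17.15 in circZbtb20+/+ cells, and Birc3, a ubiquitin ligase that holds NIK low, was lower by -2.41. Traf1 was at 14.48 in circZbtb20-/- cells, against 13.49 in circZbtb20+/+ cells, and Map3k14 was at 14.34 in circZbtb20-/- cells, against 14.14 in circZbtb20+/+ cells. Against its own wild type the 6 genes named as lower in the Nr4a1 knockout were all under the 2-fold size here. Against the other wild type Tnfaip3 was lower by -1.04 and Nfkbie by -1.27.

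**Figure D5:**
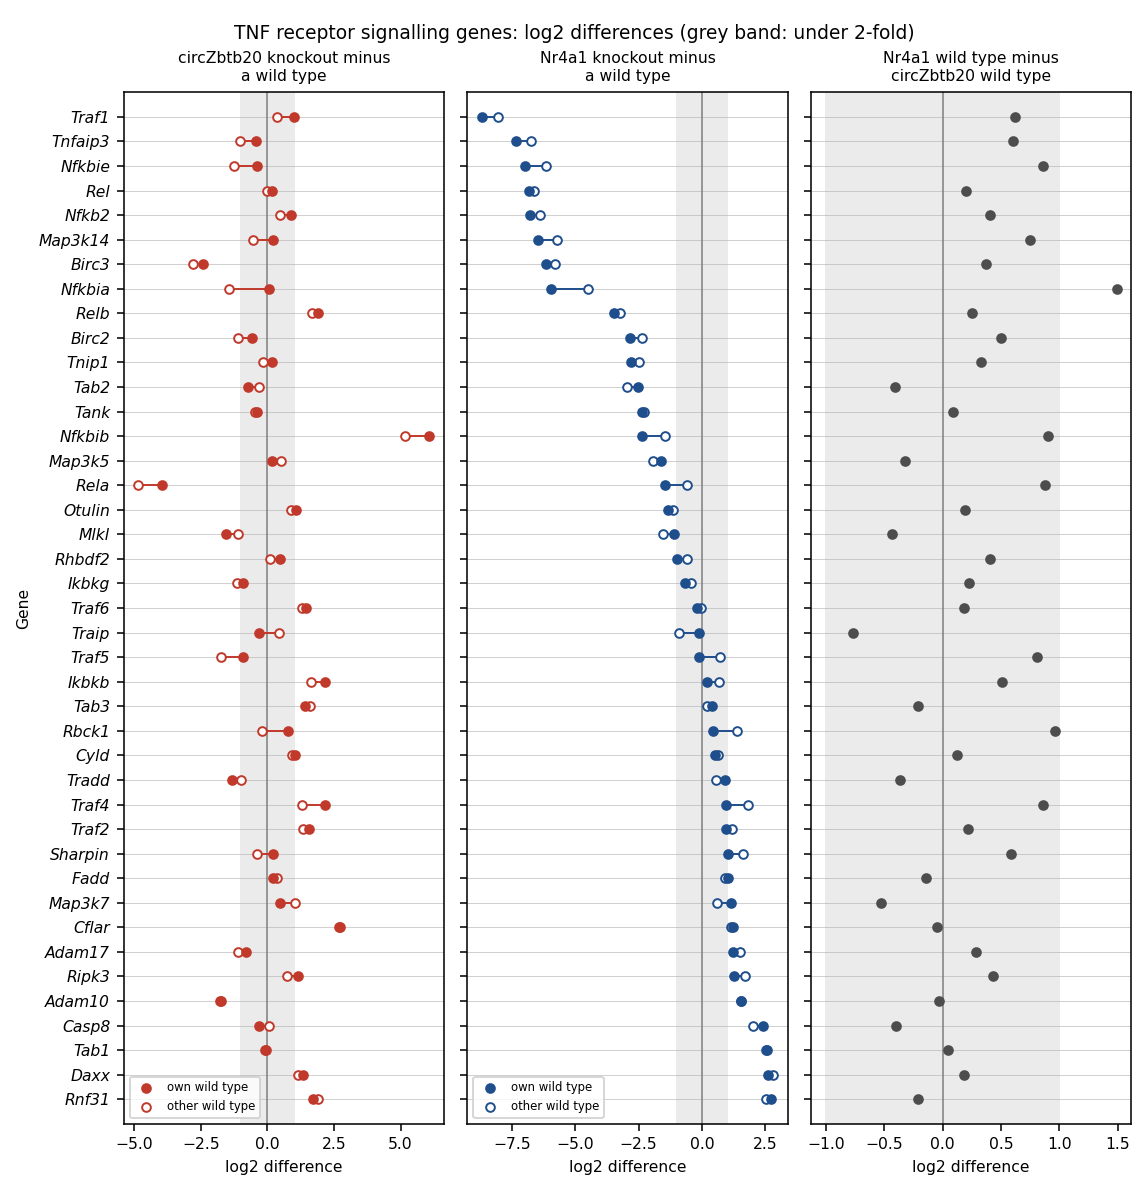
Log2 differences of the 41 TNF receptor signalling genes, ordered by the Nr4a1 knockout against its own wild type, with own (filled) and other wild type (open) and the band under 2-fold in grey; the scales of the panels differ. Traf1 at -8.68 opens the list in the Nr4a1 knockout, and Nfkbib at 6.08 is farthest right in the circZbtb20 knockout.

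A fit with an error term was possible only with both wild types taken as 1 group. In limma, with 1 residual degree of freedom and Benjamini-Hochberg adjustment over 19504 genes, 8 of the 38 members passed an adjusted p of 0.05 in the Nr4a1 knockout, 21.1% of the members, beside 11.2% of all genes, 7.32% higher and 3.86% lower. Ltb and Fas were higher, and Tnfsf4, Tnfsf11, Tnfsf14, Tnfrsf1b, Tnfrsf9 and Tnfrsf18 lower, with limma adjusted p between 0.0206 and 0.0433. In the circZbtb20 knockout limma passed 0 members and 0 of all genes. At an unadjusted p under 0.05, 13 members passed there, 34.2% of the members, beside 24.0% of all genes. These p-values rest on how far the 2 wild types happen to differ.

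Counts of markers of other cell types are to be read against the 26.6% of all genes called in the circZbtb20 knockout and the 30.3% in the Nr4a1 knockout. Nr4a1-/- cells had 14 of 15 T cell and thymocyte markers higher and 0 lower, and all 15 reached the array median. Their summed log2 level was 224.8 in Nr4a1-/- cells, against 92.7 in Nr4a1+/+ cells, and 93.2 in circZbtb20-/- cells, against 85.2 in circZbtb20+/+ cells. Thy1 (CD90) was at 16.00 in Nr4a1-/- cells, against 12.36 in Nr4a1+/+ cells, and Ptprc (CD45) at 15.93 in Nr4a1-/- cells, against 12.54 in Nr4a1+/+ cells. Thy1 was at 10.41 in circZbtb20-/- cells, against 12.36 in circZbtb20+/+ cells, and Ptprc at 12.66 in circZbtb20-/- cells, against 11.89 in circZbtb20+/+ cells. The 5 members higher in the Nr4a1 knockout were read on the same array as these markers, whose part in them was not tested. In circZbtb20-/- cells 5 T cell markers were higher and 2 lower.

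The other lists were lower or mixed. Of 9 pancreatic acinar markers 8 were lower in circZbtb20-/- cells and 9 in Nr4a1-/- cells. Their summed log2 levels were 42.2 in circZbtb20-/- cells, against 99.8 in circZbtb20+/+ cells, and 37.8 in Nr4a1-/- cells, against 76.2 in Nr4a1+/+ cells, and all 9 reached the array median in both wild types. The 9 markers of NK cells and ILC1s had 6 lower and 1 higher in circZbtb20-/- cells, and 8 lower in Nr4a1-/- cells. In circZbtb20-/- cells 3 of 11 macrophage and dendritic cell markers and 3 of 7 stromal and endothelial markers were lower. In Nr4a1-/- cells these lists had 6 lower each. Of 7 epithelial markers 3 were higher and 1 lower in circZbtb20-/- cells, and 6 were lower in Nr4a1-/- cells. Against the other wild type 0 epithelial markers were higher and 5 lower in circZbtb20-/- cells, and 3 were lower in Nr4a1-/- cells. Macrophage and dendritic cell markers then had 7 lower in circZbtb20-/- cells and 3 lower in Nr4a1-/- cells. Of 7 B cell markers 1 was higher in circZbtb20-/- cells and 3 were lower in Nr4a1-/- cells. The 3 of 11 macrophage and dendritic cell markers, 27.3%, and the 1 of 7 B cell markers, 14.3%, are no more than about the share of all genes. The 12 ILC3 markers themselves divided into 6 higher and 5 lower in circZbtb20-/- cells, and into 1 higher and 10 lower in Nr4a1-/- cells. The part of any of these cells in the members' differences was not tested.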

How the data were processed

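Gene expression was measured on 1 Affymetrix array for each of 4 samples of sorted ILC3s. The authors deposited log2 values, and the submitters' processing notes name Affymetrix Power Tools and RMA. RMA subtracts background, equalises the arrays' distributions and pools the probes of a transcript. The deposited distributions nevertheless differed between arrays. Their 75th percentiles ran from 6.58 to 6.94, and 3 to 25 rows of an array stood at the highest value, 19.93. Why they differed was not tested. The series text names another array protocol than the platform of the probe table used here. Tool versions, settings and genome build are not given in these sources. Such normalization removes a shift shared by all genes. Rows were named through a platform probe table: of 22205 rows, 19571 had 1 symbol and 2634 none. Of 55 genes with several rows the one with the highest mean was used, which left 19504 genes; all 38 members had 1 row. Differences of single arrays were taken with no test, and genes were called by the rule of size given in the text. The difference between the wild types gave the spread of 2 wild-type arrays. Alternatives were the other wild type, renormalization, median centring, other filters and thresholds, and limma 3.58.1 in R 4.3.3, checked on simulated data. Other steps used pandas 2.3.3 in Python 3.11.15. Promoter windows came from RefSeq, GRCm38.p6. The members, the signalling list and the marker lists for ILC3s, T cells and thymocytes, B cells, macrophages and dendritic cells, NK cells and ILC1s, pancreatic acinar, epithelial, and stromal and endothelial cells were chosen with earlier results of these data known. Named in full were members called against both wild types in either knockout and their ligands or receptors, and up to 6 signalling genes per knockout by size. Further signalling genes of the Nr4a1 knockout were named afterwards to show genes that were higher or under the 2-fold size.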

Additional observations from a re-analysis of the deposited data

How the results depend on the processing

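No paired analysis was possible because each genotype has 1 array. With no replicates, a difference counted as moved where it shifted by more than 0.79, the SD of the difference between the wild types over 10698 genes. Against the other wild type, 9 members and 11 signalling genes were lower in the circZbtb20 knockout, in place of 5 each, and 3 calls changed sign: Tnf to -0.16 and Cd40lg to -0.87 in the circZbtb20 knockout, and Tnfrsf13c to 0.11 in the Nr4a1 knockout. A threshold of 4-fold left 3 members higher and 0 lower in the circZbtb20 knockout, and 5 higher and 9 lower in the Nr4a1 knockout. Between the wild types it left 2 higher and 0 lower. The shares of all genes called were 10.4%, 14.3% and 1.0% in these comparisons. Of signalling genes this threshold left 4 higher and 2 lower in the circZbtb20 knockout, and 4 higher and 14 lower in the Nr4a1 knockout. A filter at the 75th percentile left 2 members lower in the circZbtb20 knockout, and 5 higher and 1 lower between the wild types, where 18.4% and 5.4% of all genes were called. The deposited distributions differed between arrays. Quantile normalization of these values gave 9 signalling genes higher and 8 lower in the circZbtb20 knockout, where 26.4% of all genes were called. In the Nr4a1 knockout it gave 5 higher and 18 lower, where 28.7% of all genes were called. Centring on the array medians moved no count past 1.5 times. The median of all genes then went to 0.14 in the circZbtb20 knockout and 0.17 in the Nr4a1 knockout. In limma with both wild types as 1 group 0 members and 0 signalling genes passed in the circZbtb20 knockout, with 13 members and 19 signalling genes at an unadjusted p under 0.05. In the Nr4a1 knockout more of the members and more of the signalling genes that passed were lower than higher. The signalling list without 8 genes that NF-kB itself induces was an alternative chosen after seeing the data. It had 11 higher and 10 lower of 33 in the Nr4a1 knockout. All 8 had been called lower there, so the lower count fell by the choice of genes. The cause of these shifts was not tested, beyond the fewer genes a stricter rule or shorter list admits. Taking the mean of a gene's rows, leaving out genes at the highest value and dropping the filter moved no count past 1.5 times. Of the differences of single genes, 12 others moved against the other wild type and 6 in limma, all in the same direction. Values near the array medians are limited by background.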

Other observations

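Members of the superfamily whose symbols the rule does not catch were mostly low, and were chosen after values were seen. Of 5 such genes, Eda, Edar, Eda2r and Ngfr, which serve skin appendages and neurons, lay between 2.63 and 4.72 and were not called in either knockout. Relt, a receptor of the family found in lymphoid tissue, was at 5.10 in circZbtb20-/- cells, against 3.71 in circZbtb20+/+ cells, and at 6.25 in Nr4a1-/- cells, against 4.64 in Nr4a1+/+ cells. Its differences were 1.39 and 1.61, and 0.46 for the circZbtb20 knockout against the other wild type.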
